A study of Mus musculus with 40 samples.

Results

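High-fat diet feeding (HFD) was set against normal diet feeding (ND) in the white fat that lies beneath the skin of mice (sWAT, subcutaneous white adipose tissue), across all expressed genes. The 16 libraries were taken by their labels, 8 from HFD-fed and 8 from ND-fed mice, out of 40 libraries in the series. The other libraries, from HFD-fed mice given semaglutide or tirzepatide and from mice moved from HFD to ND, entered the model only to share its estimate of the spread. The series asks which genes these incretin analogs restore, and the contrast of the diets is the change to be restored. The labels name no drug and no altered gene in either group. They give no strain, sex, age, diet composition, feeding time or hour of collection, and they do not say whether each sample is 1 animal, so a p-value here covers the variation among these libraries, which may be technical.

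White adipocytes store fatty acids as triglyceride in 1 large droplet. The fatty acids are taken up from the blood or made from glucose and acetate, by a path that runs from citrate through ATP citrate lyase, acetyl-CoA carboxylase and fatty acid synthase to a desaturase and an elongase. The factors ChREBP (gene Mlxipl) and SREBP (gene Srebf1) drive the genes of that path, and fat in the diet is known to repress it in liver and adipose tissue. In obesity, subcutaneous adipocytes enlarge, release more leptin, and macrophages that engulf lipid gather in the tissue.

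QuantSeq libraries, which count transcript ends, held 3144870 to 5489030 counts in HFD and 2879055 to 4466926 in ND. Levels are given as CPM, counts scaled to a TMM library size of 1000000, and differences as log2 fold change of HFD over ND with its SE. The adipocyte genes Adipoq, Plin1, Fabp4, Lipe and Cidec were at 572 CPM or more in each of the 16 libraries. Mitochondrial genes took 11.8 ± 2.1% of counts in HFD and 14.8 ± 2.1% in ND (SD, n = 8 each; exact two-sided permutation test p = 0.0143, 0.0572 adjusted over the 4 library measures compared). Library ND 5 stood apart. Its 10 B cell genes summed to 1663 CPM, where HFD libraries held 484 to 675 and the other ND libraries up to 533. Its 16 T and NK cell genes summed to 447 CPM, against 20 to 51.6 in HFD libraries and up to 42.0 in the other ND libraries. Its 6 genes of lymph node stroma summed to 516 CPM, against 2.37 to 28.0 in HFD libraries and up to 22.3 in the other ND libraries. The 20 adipocyte identity genes summed to 25314 to 32981 CPM in HFD libraries, 18812 in ND 5 and up to 35327 in the other ND libraries. The 17 muscle genes, of which Myh7 and Mb were at 0, summed to 1210 CPM in HFD 4 and at most 185 in the other HFD libraries, and to 4934 in ND 6, 4946 in ND 8 and at most 551 in the other ND libraries. Named calls that ended without ND 5, or without ND 6, ND 8 and HFD 4, are marked beside the result or near the end. In these whole-tissue samples, fewer cells of a type and less RNA per cell cannot be told apart.

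**Figure D1:**
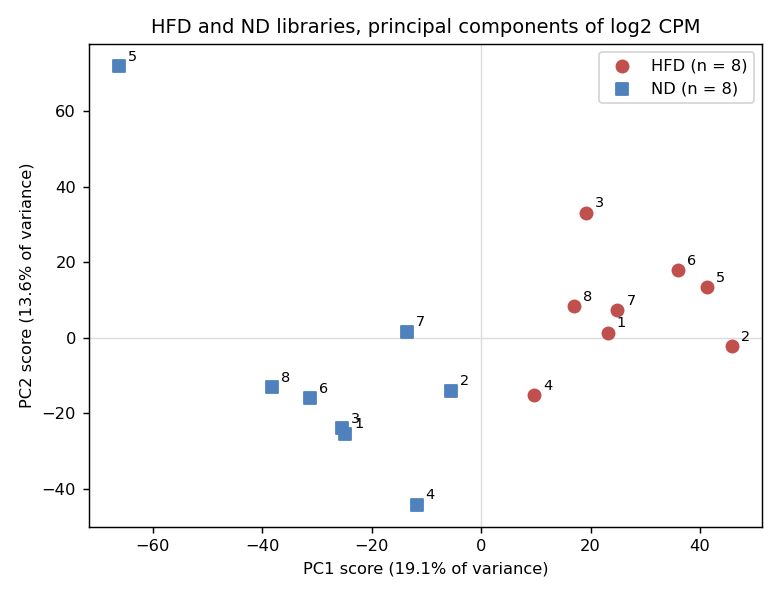
Scores of the 8 HFD (circles) and 8 ND (squares) libraries on the first 2 principal components of log2 CPM, which hold 19.1% and 13.6% of the variance; numbers are the replicate numbers in the labels. The HFD libraries all lie above 0 on the first component (9.68 to 45.8) and the ND libraries below it (-66.1 to -5.46), and ND 5 lies apart at 72.0 on the second.

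On HFD, 8 of 13 genes of fatty acid synthesis fell. Rises were in 7 of 17 of fatty acid uptake and activation, 5 of 14 of lipid droplets and 9 of 26 of lipid-associated macrophages. Fabp5 counts in both the uptake and the macrophage list. The uptake rises include Angptl4, an inhibitor of lipoprotein lipase. Further, 4 of 18 complement genes and 5 of 26 of xenobiotic metabolism fell, 1 of the 26 rose, and 7 of 27 of fatty acid oxidation rose, or 4 without library HFD 5 or with the level of muscle genes as a covariate. Other than in synthesis, most members of each of these lists did not pass. A gene was called when its Benjamini-Hochberg adjusted p in edgeR's quasi-likelihood test, taken over 15807 tested genes, was under 0.05. This held for 712 genes (4.50%), of which 447 rose (2.83%) and 265 fell (1.68%). The median log2 fold change was 0.95 among the genes that rose, -1.18 among those that fell and -0.04 over all tested genes. Changes of more than 2-fold were found in 366 called genes, 210 up and 156 down, and of more than 4-fold in 107, 50 up and 57 down. All 8 HFD libraries lay above or below all 8 ND libraries in 241 tested genes (1.52%), of which 224 were called. Leaving out each of the 16 libraries in turn gave 541 to 765 calls, and 448 of the 712 genes were called each time. Without ND 5 the count was 656, with 377 up and 279 down, and 569 of these were among the 712. Without ND 6, ND 8 and HFD 4 it was 534, with 352 up and 182 down, and 478 of these were among the 712.

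**Figure D2:**
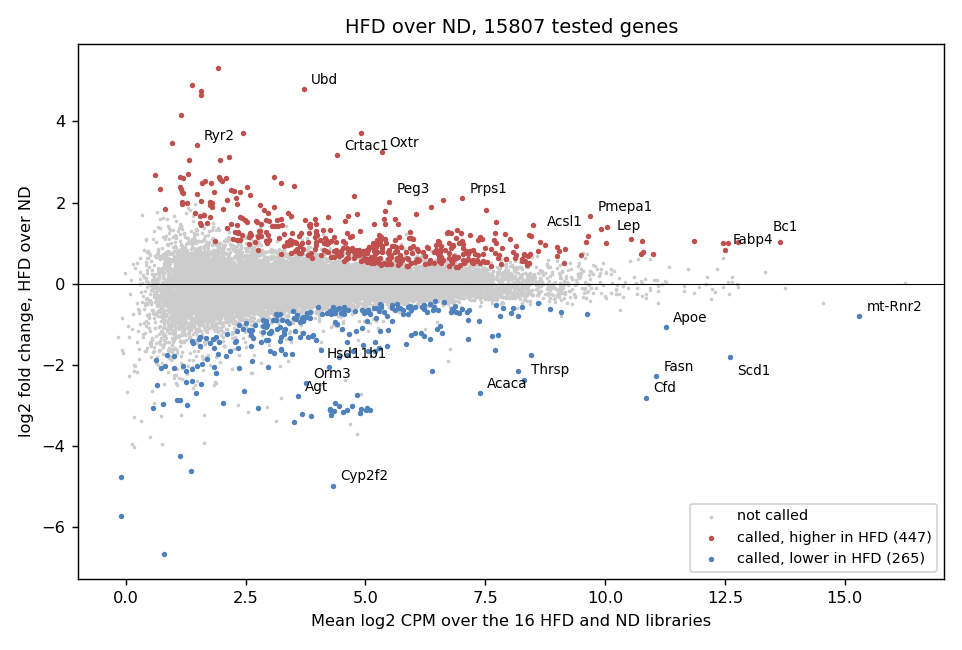
Mean log2 CPM over the 16 libraries (horizontal axis) and log2 fold change of HFD over ND (vertical axis) of the 15807 tested genes, with the 447 genes called higher in HFD in red, the 265 called lower in blue and the others in grey. Named falls reach -4.98 (Cyp2f2) and named rises 4.80 (Ubd); Scd1, Fasn and Cfd are abundant genes far below 0.

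The largest rises and falls were in genes of quite different roles. Ubd, a ubiquitin-like modifier induced by inflammatory cytokines, had 29.8, 75.7 and 108 CPM in HFD libraries (lowest, median and highest, an order used for all levels below), against 0.754, 1.24 and 8.58 CPM in ND libraries. The groups did not overlap in Ubd, and its log2 fold change was 4.80 ± 0.48 (adjusted p = 2.1e-08). Oxtr, the oxytocin receptor, had 53.2, 144 and 213 CPM in HFD libraries and 3.14, 13.1 and 40.8 CPM in ND libraries, again with no overlap (3.24 ± 0.46, adjusted p = 1.47e-05). Crtac1, a secreted cartilage matrix protein, rose by 3.16 ± 0.34, Tph2, the neuronal enzyme of serotonin synthesis, by 3.72 ± 0.68, and Slc5a7, the choline transporter of cholinergic neurons, by 2.40 ± 0.56. Tph2 stayed at 34.6 CPM or less in every library. Further rises were in Mrgprg, a Mas-related receptor (3.13 ± 0.60), Spc25, a kinetochore protein (2.54 ± 0.47), Tfr2, a transferrin receptor (2.32 ± 0.44), and Prps1, which makes the ribose donor of nucleotide synthesis (2.10 ± 0.22). Prps1 had 201, 274 and 358 CPM in HFD libraries and 49.5, 62.6 and 79.2 CPM in ND libraries. The highest ND library lay below the lowest HFD library by a wide margin, and the adjusted p was 8.27e-09. Synpo2, an actin-binding protein, rose by 1.90 ± 0.25, with 146, 162 and 175 CPM in HFD libraries and 28.9, 40.5 and 73.7 CPM in ND libraries.

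Among the falls, Cyp2f2, a cytochrome P450 of xenobiotic metabolism, had 0.22, 3.84 and 9.32 CPM in HFD libraries and 52.2, 118 and 248 CPM in ND libraries (-4.98 ± 0.52, adjusted p = 3.63e-08). Agt, the angiotensinogen precursor that adipocytes also secrete, had 1.88, 4.82 and 10.2 CPM in HFD libraries and 10, 34.1 and 59.1 CPM in ND libraries (-2.78 ± 0.38, adjusted p = 5.08e-06). Cyp2f2 showed no overlap, while for Agt the highest HFD library lay just above the lowest ND library. Orm3, an orosomucoid (acute phase) gene, fell by 2.45 ± 0.31, and the pseudogene-named symbol Gm5182 by 3.06 ± 0.39. Neb, the giant sarcomere protein of muscle, also passed among the largest falls at -3.42 ± 1.00 (adjusted p = 0.0393), but stood at -1.28 (adjusted p = 0.534) without ND 6, ND 8 and HFD 4. Its call also ended on leaving out ND 6 or ND 8 alone or any HFD library other than HFD 4 (adjusted p 0.0547 to 0.139).

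Of the 13 genes listed for fatty acid synthesis, all tested, 8 fell, 0 rose and 5 did not pass, with a median log2 fold change of -1.26. Acaca, the acetyl-CoA carboxylase of the cytosol, had 58.3, 67.9 and 72.4 CPM in HFD libraries and 285, 451 and 554 CPM in ND libraries (-2.71 ± 0.27, adjusted p = 8.27e-09). Fasn, fatty acid synthase, had 736, 1036 and 1247 CPM in HFD libraries and 2936, 4577 and 6859 CPM in ND libraries (-2.29 ± 0.35, adjusted p = 3.45e-05). Elovl6, which lengthens palmitate, had 3.52, 12.3 and 17.8 CPM in HFD libraries and 32.4, 84.1 and 103 CPM in ND libraries (-2.75 ± 0.43, adjusted p = 5.72e-05). In these 3 enzymes no HFD library reached the lowest ND library. Acly, which cleaves citrate to acetyl-CoA, fell by 2.15 ± 0.34 and Scd1, the desaturase of stearate and palmitate, by 1.80 ± 0.21, both without overlap. Further enzyme genes of the list were lower too. Aacs, which activates acetoacetate, fell by 1.30 ± 0.30 and Acss2, which activates acetate, by 1.12 ± 0.30. Acacb, the carboxylase whose product inhibits fatty acid entry into mitochondria, had 26.3, 40.2 and 73.8 CPM in HFD libraries and 69.5, 96.3 and 140 CPM in ND libraries (-1.26 ± 0.23). The 8 calls held in each fit with 1 library left out, and the Acss2 call ended without the filter on low counts (adjusted p = 0.0562) and without ND 6, ND 8 and HFD 4 (adjusted p = 0.101). The members that did not pass ranged from -0.70, for Scd2, a second stearoyl-CoA desaturase, to 0.40.

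Of 13 regulators of the path 3 fell, 0 rose and 10 did not pass. Thrsp, a small nuclear protein of lipogenic tissue also called Spot 14, had 94.8, 131 and 255 CPM in HFD libraries and 491, 715 and 1084 CPM in ND libraries, with no overlap (-2.37 ± 0.25, adjusted p = 2.1e-08). Its relative Mid1ip1, which binds acetyl-CoA carboxylase, fell by 1.15 ± 0.25, and Mlxipl, the gene of ChREBP, by 1.10 ± 0.17. Srebf1 had 55.6, 87.5 and 107 CPM in HFD libraries and 87.5, 109 and 163 CPM in ND libraries and did not pass (-0.48 ± 0.33, adjusted p = 0.489), nor did Nr1h3, the liver X receptor alpha (0.05 ± 0.15). Of 11 genes that supply NADPH, the reducing agent of the path, only Tkt passed (9.09%). Tkt, the transketolase of the pentose phosphate path, had 159, 204 and 232 CPM in HFD libraries and 370, 578 and 1207 CPM in ND libraries (-1.76 ± 0.25, adjusted p = 5.56e-06). Me1, malic enzyme, stood at -0.23 ± 0.23, G6pdx, which opens the pentose phosphate path, at 0.36 ± 0.16 and Pgd, its next dehydrogenase, at -0.07 ± 0.25. Slc25a1, the carrier that brings citrate out of mitochondria, did not pass (0.23 ± 0.29).

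Of 5 tested genes listed for desaturation and elongation of polyunsaturated fatty acids, 2 fell, 1 rose and 2 did not pass. Fads1 had 10.9, 16.9 and 26.9 CPM in HFD libraries and 36.3, 53.7 and 66.7 CPM in ND libraries, with no overlap (-1.51 ± 0.17, adjusted p = 3.63e-08). Fads3, a relative that acts on sphingoid bases and vaccenate, had 213, 251 and 335 CPM in HFD libraries and 35.4, 121 and 161 CPM in ND libraries (1.14 ± 0.19, adjusted p = 0.000102). The lowest ND value of Fads3 was in ND 5, without which the fold change was 1.00. Fads2 fell by 0.83 ± 0.22, a call lost without ND 6, ND 8 and HFD 4 (adjusted p = 0.0593), and the elongase Elovl5 stood at 0.18 ± 0.12. In cholesterol synthesis 1 of 19 genes tested passed (5.26%, against 4.50% of all tested genes). This was Hmgcs1, the HMG-CoA synthase of the cytosol, and it rose by 1.08 ± 0.23. Apoe, the lipid carrier of macrophages and adipocytes, had 1286, 1766 and 2194 CPM in HFD libraries and 2979, 3392 and 4693 CPM in ND libraries, without overlap (-1.08 ± 0.15, adjusted p = 3.46e-06). Abca1, a cholesterol exporter, stood at 0.13 ± 0.17.

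Because Fasn, Acaca and Acly fell together, their promoters were searched for 3 letter strings known from lipogenic promoters, on both strands of the 250 bases before the RefSeq start (GRCm38.p6). The strings were CACGTG, the E-box core, CCAAT, the NF-Y core, and TCACNCCAC, a sterol response element. The promoter of Fasn (chr11:120824548-120824797, minus strand) is shown 5′ to 3′ because it held the only matches, with the CCAAT and ATTGG letters in capitals.
Fasn promoter: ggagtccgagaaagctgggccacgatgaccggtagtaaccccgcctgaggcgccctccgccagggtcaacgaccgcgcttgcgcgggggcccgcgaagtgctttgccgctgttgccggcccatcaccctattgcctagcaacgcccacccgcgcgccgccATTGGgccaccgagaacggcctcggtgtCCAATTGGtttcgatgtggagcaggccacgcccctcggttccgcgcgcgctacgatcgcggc
The matches start 90, 62 and 59 bases before the gene's start, and the last 2 overlap. CCAAT was found in 33.8% of 32851 promoters, CACGTG in 6.02% and TCACNCCAC in 1.05%, so the CCAAT letters are common and their presence is a description of the window. Acaca and Acly held none of the 3 strings in these windows.

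Several genes that bring fatty acids into cells rose. Of 17 genes of uptake and activation tested, 7 rose, 0 fell and 10 did not pass (median 0.35), and the 7 calls held in each fit with 1 library left out. Acsl1, which joins fatty acids to coenzyme A, had 995, 1394 and 2220 CPM in HFD libraries and 456, 601 and 828 CPM in ND libraries, without overlap (1.34 ± 0.21, adjusted p = 2.71e-05). Fabp4, the fatty acid carrier of adipocytes, had 5848, 7860 and 10046 CPM in HFD libraries and 3069, 4722 and 6009 CPM in ND libraries (0.84 ± 0.20, adjusted p = 0.00687), and only the ends of its ranges overlapped. Fabp5, a related carrier shared with macrophages, rose by 1.03 ± 0.20. On the side of the blood vessel, Gpihbp1, which anchors lipoprotein lipase to the endothelium, rose by 0.93 ± 0.20, Vldlr, a receptor of triglyceride-rich particles, by 0.96 ± 0.20, and Angptl4, an inhibitor of lipoprotein lipase, by 1.07 ± 0.22. Slc27a1, a fatty acid transporter, rose by 0.79 ± 0.19. Lpl, the lipase itself, stood at 0.35 ± 0.26 and Cd36, the scavenger receptor that takes up fatty acids, at 0.72 ± 0.23 (adjusted p = 0.0552). Cd36 had 641, 1091 and 1828 CPM in HFD libraries and 446, 573 and 1014 CPM in ND libraries, and passed in 10 of the alternatives, with DESeq2 among them (adjusted p = 0.0301).

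Of 14 genes of droplet proteins tested 5 rose and 0 fell, with a median of 0.51. Hilpda, a small droplet protein that inhibits adipose triglyceride lipase and responds to hypoxia and fatty acids, had 31.3, 90.5 and 169 CPM in HFD libraries and 12.3, 23.4 and 41.4 CPM in ND libraries (2.01 ± 0.29, adjusted p = 1.21e-05). Cidec, which fuses droplets into 1 large droplet, had 1820, 2216 and 3105 CPM in HFD libraries and 572, 1089 and 1418 CPM in ND libraries (1.11 ± 0.17, adjusted p = 2.53e-05). Cidec showed no overlap, and Hilpda overlapped at the ends of its ranges. Plin5, the perilipin of oxidative cells, rose by 1.66 ± 0.27, Plin2 by 0.74 ± 0.15, and Cavin1, a coat protein of caveolae, by 1.04 ± 0.18. Plin1, the main perilipin of white adipocytes, did not pass (-0.15 ± 0.18). The enzymes that assemble triglyceride gave 0 calls among 17 in edgeR, with log2 fold changes from -0.80 to 0.99, and Dgat1 at 0.28 ± 0.16, Dgat2 at 0.09 ± 0.27 and Gpam at -0.23 ± 0.16. At an unadjusted p under 0.05 it was 3 of the 17, and DESeq2 called 1 and limma-voom 3. The lowest of the 17 was Pck1, whose product feeds glycerol synthesis, at 220, 415 and 664 CPM in HFD libraries and 275, 786 and 1155 CPM in ND libraries (-0.80 ± 0.27, adjusted p = 0.0812). Pck1 lay below the ND median in 8 of 8 HFD libraries, and passed with DESeq2 (adjusted p = 0.0430), with limma-voom and without HFD 8 or ND 2.

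In lipolysis, 3 of 19 genes of the path and its control rose and 1 fell. Adrb3, the beta adrenergic receptor of adipocytes, had 18.8, 40.2 and 82.1 CPM in HFD libraries and 68.0, 203 and 264 CPM in ND libraries (-2.15 ± 0.35, adjusted p = 7.56e-05). Adora1, the adenosine receptor that restrains lipolysis, had 67.3, 89.4 and 121 CPM in HFD libraries and 18.9, 51.0 and 71.4 CPM in ND libraries (0.86 ± 0.18, adjusted p = 0.00121). The lipases Pnpla2 (-0.07 ± 0.19) and Lipe (0.01 ± 0.16) did not pass, while Mgll, which cleaves the last fatty acid, rose by 0.73 ± 0.17. The third rise, of Prkar2b, a regulatory subunit of protein kinase A (0.90 ± 0.23), was not called without HFD 5 (adjusted p = 0.0501) or with muscle level as a covariate (adjusted p = 0.0667). In fatty acid oxidation, 7 of 27 genes tested rose and 0 fell (median 0.29). Cpt1a, the carnitine acyltransferase of the outer mitochondrial membrane, had 38.2, 46.5 and 62.3 CPM in HFD libraries and 19.1, 23.9 and 34.5 CPM in ND libraries, without overlap (0.90 ± 0.16, adjusted p = 0.000125). Acadm, a mitochondrial acyl-CoA dehydrogenase, rose by 0.88 ± 0.19, and Slc25a20, the acylcarnitine carrier, by 0.77 ± 0.17. These 3 calls held in each fit with 1 library left out. The calls of Acadl and Hadhb, further enzymes of the chain, both ended without HFD 3, 5 or 8, or ND 1, 2, 3, 4 or 5, that of Hadhb also without HFD 2, 6 or 7 (adjusted p 0.0524 to 0.118), and that of Ucp2, a mitochondrial carrier, without HFD 2, 5 or 6 or ND 6, 7 or 8 (adjusted p 0.0569 to 0.0821). Without HFD 5 or with muscle level as a covariate the list thus had 4 rises.

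Of 18 genes of the citric acid cycle and 72 nuclear genes of the respiratory chain, 0 passed in edgeR, with log2 fold changes from -0.36 to 0.53 and from -0.47 to 0.52. Among the 18 genes of the cycle 3 had an unadjusted p under 0.05, and DESeq2 and limma-voom called 0. Among the 72 of the chain 8 did, and DESeq2 called 1 and limma-voom 5. Of 15 mitochondrially encoded genes 1 passed (6.67%), the large ribosomal RNA mt-Rnr2. It had 24752, 30429 and 40302 CPM in HFD libraries and 40069, 51606 and 79418 CPM in ND libraries (-0.80 ± 0.18, adjusted p = 0.00332). The ranges of the groups overlapped only at their ends, and mt-Rnr1, the small ribosomal RNA, stood at -0.49 ± 0.19 (adjusted p = 0.133). In glycolysis and pyruvate metabolism 1 of 25 genes rose and 2 fell (12% called, against 4.50% of all tested genes). Pfkfb3, which makes the activator of phosphofructokinase, had 443, 522 and 701 CPM in HFD libraries and 92.1, 259 and 282 CPM in ND libraries, without overlap (1.17 ± 0.20, adjusted p = 0.000101). Pdhb, a subunit of pyruvate dehydrogenase, fell by 0.72 ± 0.17. The other subunit called, Pdha1, fell by 0.61 ± 0.18, and its call ended without HFD 1, 2, 4 or 6 or ND 6 or 8 (adjusted p 0.0518 to 0.0895), which left 1 fall in the list. Pdk4, the kinase that inactivates pyruvate dehydrogenase, stood at 0.51 ± 0.34. In insulin signalling 2 of 22 genes fell and 0 rose (9.09%). Pik3r1, the regulatory subunit of phosphoinositide 3-kinase, had 141, 175 and 197 CPM in HFD libraries and 207, 278 and 483 CPM in ND libraries (-0.79 ± 0.18, adjusted p = 0.00449). Without ND 6, ND 8 and HFD 4, Pik3r1 stood at -0.59 (adjusted p = 0.0872) and Slc2a4, the insulin-responsive glucose transporter, at -0.52 (adjusted p = 0.0802) in place of -0.58 ± 0.15, and the Slc2a4 call also ended without ND 8 alone (adjusted p = 0.0506). Insr (-0.16 ± 0.22), Irs1 (-0.20 ± 0.20) and Akt2 (0.12 ± 0.17), the receptor, its adaptor and the kinase that follows, did not pass.

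**Figure D3:**
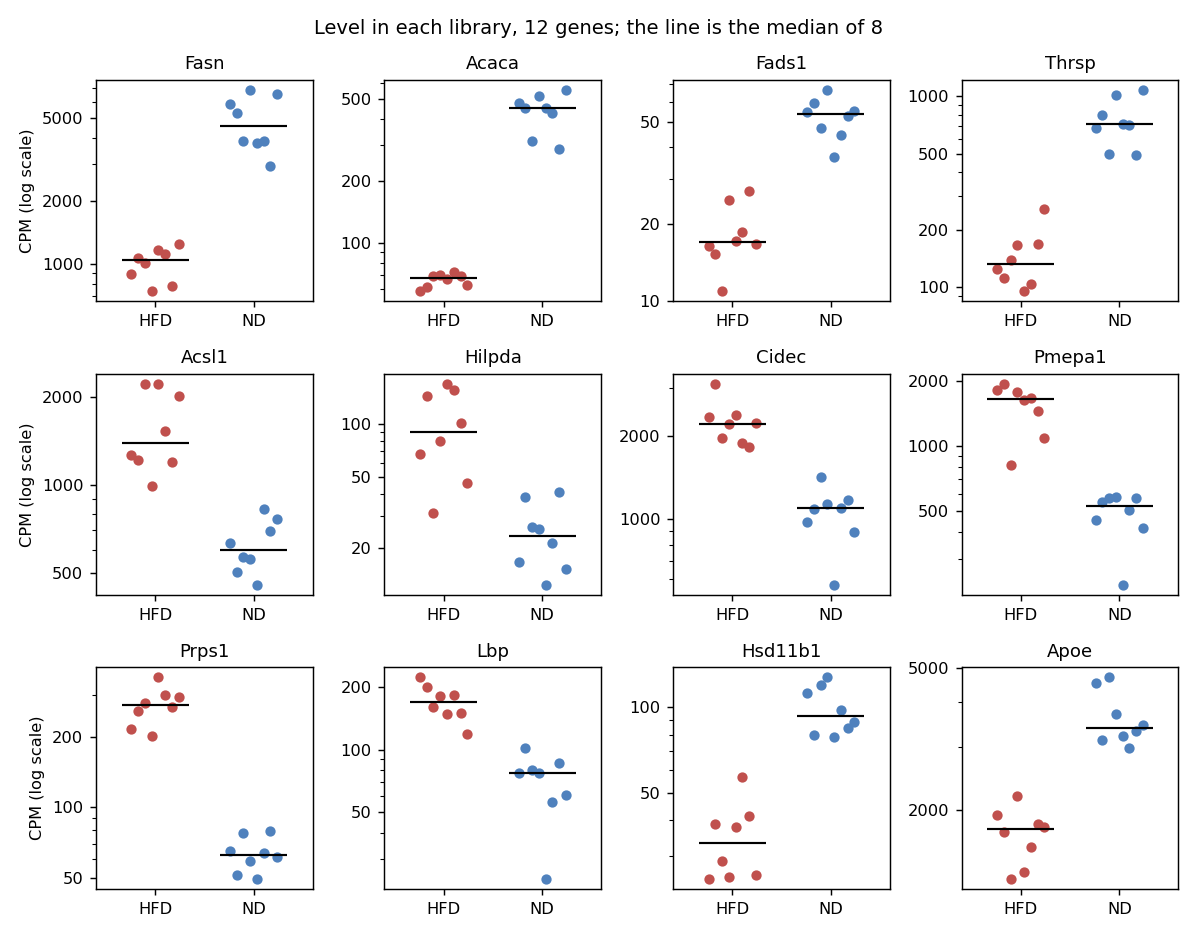
CPM (log axis) of 12 genes in each of the 8 HFD (left, red) and 8 ND (right, blue) libraries, in order of replicate number from left to right, with the median as a line. Fasn, Acaca, Fads1, Thrsp, Hsd11b1 and Apoe are lower in all HFD libraries than in any ND library; Acsl1, Cidec, Pmepa1, Prps1 and Lbp are higher in all of them, and Hilpda overlaps at the ends.

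Hormones of the adipocyte moved both ways, with 4 of 16 higher, 4 lower and 8 not called. Lep, the satiety hormone leptin, had 1629, 1868 and 1999 CPM in HFD libraries and 147, 650 and 1110 CPM in ND libraries, without overlap (1.40 ± 0.29, adjusted p = 0.00182). Its lowest ND value was in ND 5, without which the log2 fold change was 1.25. Cfd, the complement protease adipsin, had 271, 643 and 1649 CPM in HFD libraries and 4050, 4810 and 8232 CPM in ND libraries (-2.81 ± 0.35, adjusted p = 3.83e-07). Retn, resistin, which mouse adipocytes secrete, had 429, 666 and 736 CPM in HFD libraries and 638, 1034 and 1453 CPM in ND libraries (-0.75 ± 0.19, adjusted p = 0.00883). Rbp4, the retinol carrier, fell by 0.81 ± 0.22, a call lost without HFD 3 (adjusted p = 0.0532), without ND 4 (0.0515) and without ND 6, ND 8 and HFD 4 (0.0811). Adipoq, adiponectin, had 1707, 2419 and 2765 CPM in HFD libraries and 1218, 2564 and 3114 CPM in ND libraries (-0.01 ± 0.17), and its groups overlapped almost fully. The genes tied to adipose expansion gave 4 rises among 8: Lep, Sfrp5, a secreted Wnt inhibitor (1.82 ± 0.39), and the imprinted genes Mest (2.17 ± 0.46) and Peg3. Peg3 had 110, 212 and 331 CPM in HFD libraries and 19.2, 46.0 and 94.9 CPM in ND libraries (2.06 ± 0.44, adjusted p = 0.00276), with no overlap. Npr3, the clearance receptor of natriuretic peptides, stood at 0.68 ± 0.31.

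Of 20 adipocyte transcription factors 0 passed in edgeR, with log2 fold changes from -0.62 to 0.35, and Pparg stood at 0.08 ± 0.28 and Cebpa at -0.11 ± 0.17. An unadjusted p under 0.05 was found for 2 of them, and DESeq2 and limma-voom called 1 each. Of 19 genes of adipocyte progenitors 0 passed. In edgeR 4 had an unadjusted p under 0.05, and DESeq2 called 1 and limma-voom 2. Pdgfra, their receptor for platelet-derived growth factor, had 18.5, 31.8 and 49.3 CPM in HFD libraries and 35.1, 47.7 and 60.6 CPM in ND libraries (-0.51 ± 0.16, adjusted p = 0.0520), and passed with DESeq2 (adjusted p = 0.0291) and without ND 5 (adjusted p = 0.0331). Among 20 genes of adipocyte identity 4 rose and 2 fell, and the rise not named above was Slc7a10, an amino acid transporter of white adipocytes (0.97 ± 0.21). Of 15 genes of brown and beige adipocytes 4 rose and 2 fell, and they did not move as 1 group. Dio2, which activates thyroid hormone, had 4.69, 7.78 and 16.9 CPM in HFD libraries and 0.286, 1.79 and 5.39 CPM in ND libraries (2.06 ± 0.50, adjusted p = 0.00645). The other 3 rises, Otop1, Prdm16 and Slc36a2, were not called without ND 5 (adjusted p 0.0595, 0.0952 and 0.0591), so the list then had 1 rise, and each of the 3 also lost its call without HFD 2 or HFD 5 (adjusted p 0.0507 to 0.114). Otop1 was called only in the fits without HFD 4, HFD 7, ND 6 or ND 8, Prdm16 lost its call also without HFD 1, 3 or 7 or ND 2, 3 or 4, and Slc36a2 without HFD 6. Ucp1, the uncoupling protein, had 10 counts over the 8 HFD libraries and 154 over the 8 ND libraries, of which 137 were in ND 6. Ppargc1a, a coactivator of mitochondrial genes, stood at -0.50 ± 0.29. Tmem26, a beige adipocyte marker, fell by 1.98 ± 0.52, a call lost without ND 6, ND 8 and HFD 4 (adjusted p = 0.0667). Among calcium cycling genes, Ryr2, the ryanodine receptor known from heart, had 3.75, 7.58 and 9.04 CPM in HFD libraries and 0, 0.438 and 1.54 CPM in ND libraries (3.41 ± 0.55, adjusted p = 4.14e-05).

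Steroid metabolism changed at several points. Hsd11b1, which regenerates active glucocorticoid inside the cell, had 24.9, 33.4 and 56.6 CPM in HFD libraries and 78.3, 93.2 and 127 CPM in ND libraries, without overlap (-1.49 ± 0.18, adjusted p = 1.03e-07). The glucocorticoid receptor Nr3c1 stood at -0.42 ± 0.14 (adjusted p = 0.0752). Hsd17b4, a peroxisomal enzyme of both steroid and fatty acid breakdown, had 118, 156 and 435 CPM in HFD libraries and 58.0, 87.3 and 127 CPM in ND libraries (1.24 ± 0.24, adjusted p = 0.000592). Of the receptors for gut hormones and oxytocin, 4 could be tested and Oxtr and Gipr passed. Gipr, the receptor that tirzepatide also binds, was low, with 0, 3.06 and 4.90 CPM in HFD libraries and 0, 0.743 and 1.76 CPM in ND libraries (1.83 ± 0.56, adjusted p = 0.0463), and its call held only on leaving out HFD 4, HFD 7 or ND 1 (adjusted p up to 0.11 without another library). Glp1r, the receptor of semaglutide, had 3 counts over the HFD libraries and 24 over the ND libraries and was not tested.

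Of 26 genes of lipid-associated macrophages tested 9 rose and 0 fell, with a median of 0.51, and 8 of the 9 calls held in each fit with 1 library left out. Itgax, the integrin CD11c, had 11.5, 15.7 and 19.9 CPM in HFD libraries and 0.734, 4.16 and 12.6 CPM in ND libraries (1.41 ± 0.30, adjusted p = 0.00194). Atp6v0d2, a subunit of the lysosomal proton pump, had 4.36, 9.40 and 25.5 CPM in HFD libraries and 0.734, 1.29 and 11.4 CPM in ND libraries (2.28 ± 0.53, adjusted p = 0.00589). Itgax overlapped through ND 2 alone, and Atp6v0d2 through ND 7 alone, the other ND libraries holding 1.80 CPM or less. Slc37a2, a sugar phosphate carrier of macrophages, rose by 1.58 ± 0.36, the galectin Lgals3 by 1.09 ± 0.27, the protease inhibitor Cstb by 1.06 ± 0.19 and the cathepsin Ctsl by 0.70 ± 0.18. Adipocytes and vessel cells also make several of these, Fabp5 and Lgals3 among them. Trem2, the lipid receptor that marks these cells, rose by 1.75 ± 0.45, a call lost without ND 6, ND 8 and HFD 4 at 1.71 (adjusted p = 0.0612). Ctsd, a lysosomal protease, was called at 0.50 ± 0.15 (adjusted p = 0.0495), and that call ended without any single library other than HFD 4, HFD 7 and ND 4 (adjusted p 0.0506 to 0.104). Lysosomal genes outside the list gave 2 rises among 20, the membrane protein Scarb2 (0.57 ± 0.12) and the pump subunit Atp6v1b2 (0.62 ± 0.14), and 4 rises without HFD 4 or ND 4.

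Broad macrophage markers did not pass. Adgre1, the antigen F4/80, had 24.6, 42.3 and 51.3 CPM in HFD libraries and 22.6, 35.3 and 44.2 CPM in ND libraries (0.20 ± 0.26), and Cd68 stood at 0.45 ± 0.28. Of 17 genes of resident adipose macrophages 0 passed in edgeR, 2 had a positive and 15 a negative log2 fold change, with a median of -0.29. An unadjusted p under 0.05 was found for 1 gene, and DESeq2 and limma-voom called 0. Mrc1, the mannose receptor of these cells, had 108, 191 and 216 CPM in HFD libraries and 158, 240 and 304 CPM in ND libraries (-0.37 ± 0.20, adjusted p = 0.346), and 8 of 8 HFD libraries lay below the ND median. Of 22 inflammatory mediators 4 rose and 0 fell. Il1rn, the antagonist of the interleukin 1 receptor, had 3.31, 6.46 and 11 CPM in HFD libraries and 0, 1.84 and 2.29 CPM in ND libraries, without overlap (2.27 ± 0.51, adjusted p = 0.00309). Beside Ubd and Il1rn the calls were Ccl7 and Cxcl2, attractants of monocytes and neutrophils. Ccl7 rose by 1.30 ± 0.37, a call lost without HFD 5 or 6 or ND 3, 6 or 8, and Cxcl2 by 1.44 ± 0.43, a call lost without HFD 2, 5 or 6 or ND 1, 2, 4, 5, 7 or 8 (adjusted p of both 0.0509 to 0.133). Without HFD 5 or HFD 6 the list thus had 2 rises. Ccl2, the main monocyte attractant, had 5.73, 9.45 and 19.1 CPM in HFD libraries and 2.51, 3.88 and 6.79 CPM in ND libraries and did not pass (1.33 ± 0.47, adjusted p = 0.103). Tnf had 42 counts over the HFD libraries and 61 over the ND libraries, and Il6 had 4 in each, too few to test.

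Of 11 tested genes listed as acute phase proteins, a list without Orm3, 1 rose, 2 fell and 8 did not pass. The rise was in Lbp, and Cp was among the falls. Lbp, the lipopolysaccharide-binding protein, had 119, 170 and 222 CPM in HFD libraries and 24, 77.2 and 102 CPM in ND libraries (1.27 ± 0.22, adjusted p = 0.000115). Its groups did not overlap, and without ND 5 the log2 fold change was 1.14. Cp, the copper oxidase ceruloplasmin, had 26.5, 50.5 and 63.4 CPM in HFD libraries and 67.1, 126 and 147 CPM in ND libraries (-1.22 ± 0.24, adjusted p = 0.000968). Of 18 complement genes 4 fell and 0 rose. Beside Cfd these were C2, the protease of the classical path, at 17.7, 27.2 and 42.7 CPM in HFD libraries and 43.7, 57.6 and 93.3 CPM in ND libraries (-1.18 ± 0.23, adjusted p = 0.000592), the central component C3 (-0.93 ± 0.22, adjusted p = 0.00613) and C4b (-0.61 ± 0.17). The C4b call ended without HFD 5 or 6 or ND 1 or 3 (adjusted p 0.0593 to 0.0856). Of 27 interferon response genes (3.7% called, against 4.50% of all tested genes) only Xaf1, which binds an inhibitor of apoptosis, passed (0.87 ± 0.20). Of 16 genes of antigen presentation 0 passed in edgeR, from -1.03 to 0.57. An unadjusted p under 0.05 was found for 2, and DESeq2 called 0 and limma-voom 1.

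**Figure D4:**
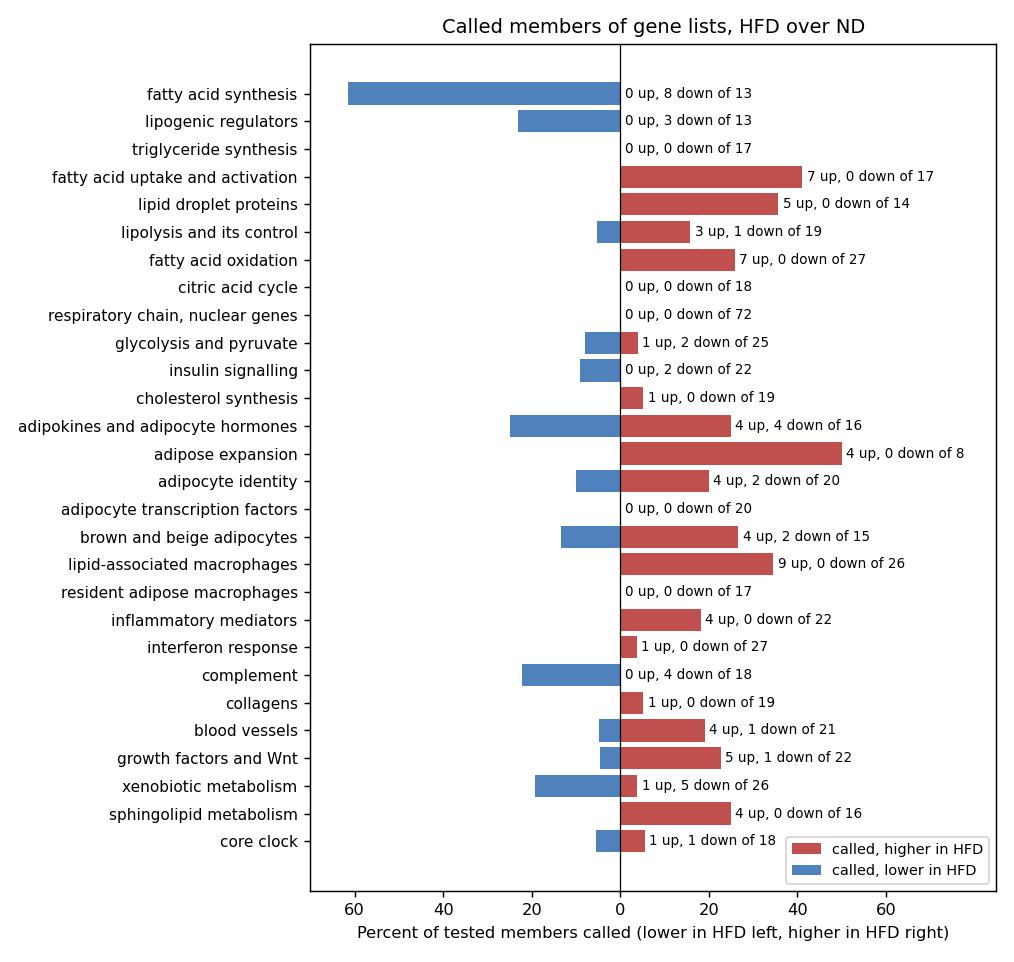
Share of the tested members of 28 gene lists that were called, to the left of 0 when lower in HFD (blue) and to the right when higher in HFD (red), with the counts printed. Over all 15807 genes 2.83% were called higher and 1.68% lower. Synthesis of fatty acids is the longest bar to the left; the transcription factors, citric acid cycle, respiratory chain, triglyceride synthesis and resident macrophages have none.

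Of 19 collagens (5.26% called, near the 4.50% of all tested genes) only Col16a1, a collagen that sits on fibril surfaces, rose (1.01 ± 0.24), while Col1a1 (-0.10 ± 0.25), Col6a3 (0.41 ± 0.17) and Col4a1 (0.31 ± 0.16) did not pass. Of 29 crosslinking and matricellular genes 3 rose (10.3%), of which the call that held in each fit with 1 library left out was Postn, periostin, at 32.4, 67.6 and 156 CPM in HFD libraries and 18.1, 26.1 and 38.1 CPM in ND libraries (1.46 ± 0.35, adjusted p = 0.00706). Without HFD 2, HFD 6, ND 6 or ND 8 it was the list's 1 rise. Sparc, a collagen-binding protein, had 5806, 7299 and 8404 CPM in HFD libraries and 1612, 5010 and 6269 CPM in ND libraries, with the lowest in ND 5 (0.63 ± 0.20, adjusted p = 0.0578), and passed with DESeq2 (adjusted p = 0.0229). Mmp9, a gelatinase, had 5.33, 10.8 and 12.3 CPM in HFD libraries and 17.6, 26.3 and 52.0 CPM in ND libraries, without overlap (-1.64 ± 0.41, adjusted p = 0.0120). Timp4, an inhibitor of such proteases that fat expresses, had 67.2, 90.0 and 133 CPM in HFD libraries and 67.5, 238 and 422 CPM in ND libraries (-1.37 ± 0.30, adjusted p = 0.00303). Pmepa1, a target and brake of the TGF-beta path, had 817, 1647 and 1944 CPM in HFD libraries and 226, 525 and 579 CPM in ND libraries (1.66 ± 0.27, adjusted p = 4.86e-05). Of 21 genes of blood vessels 4 rose and 1 fell, and without HFD 2, HFD 6 or ND 4 it was 2 rises. Without ND 6, ND 8 and HFD 4 it was 2 rises and 0 falls. Cdh5, the cadherin of endothelial junctions, had 114, 135 and 149 CPM in HFD libraries and 63.5, 92.8 and 107 CPM in ND libraries, without overlap (0.63 ± 0.15, adjusted p = 0.00503). Pecam1, another endothelial adhesion protein, stood at 0.50 ± 0.17 (adjusted p = 0.0959), and Vegfa, the main angiogenic factor, at -0.26 ± 0.21. Angpt1, a stabiliser of vessels, fell by 1.27 ± 0.31, a call lost without ND 6, ND 8 and HFD 4 at -0.85 (adjusted p = 0.155). Mcam, a pericyte and endothelial adhesion protein, rose by 0.81 ± 0.20.

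Of 22 growth factors and Wnt genes 5 rose and 1 fell, and without HFD 2 it was 3 rises. The acidic and basic fibroblast growth factors went opposite ways. Fgf1, the acidic factor, had 17.6, 29.4 and 40.1 CPM in HFD libraries and 3.14, 15.1 and 19.9 CPM in ND libraries (1.05 ± 0.25, adjusted p = 0.00587), with its lowest ND value in ND 5 (0.90 without it). Fgf2, the basic factor, had 2.35, 8.35 and 12.3 CPM in HFD libraries and 15.8, 17.8 and 25.5 CPM in ND libraries, without overlap (-1.31 ± 0.24, adjusted p = 0.00029). Pdgfb, the factor that recruits pericytes, rose by 0.76 ± 0.19, and Igf1 stood at 0.02 ± 0.16.

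Of 26 genes of xenobiotic metabolism tested 5 fell and 1 rose, and without ND 5 it was 8 and 1. Beside Cyp2f2 the falls were Gsta3 (-1.43 ± 0.24), Gsta4 (-1.40 ± 0.28) and Gstt1 (-0.71 ± 0.18), glutathione transferases, and Fmo1, a flavin monooxygenase (-0.92 ± 0.20). Gsta3 had 16.3, 18.5 and 37.4 CPM in HFD libraries and 36.3, 64.7 and 78.7 CPM in ND libraries, which overlapped only at the ends. The Gstt1 call ended without ND 6, ND 8 and HFD 4 (adjusted p = 0.0574) and with muscle level as a covariate (0.0511). The rise was in Cyp4b1, a fatty acid hydroxylase, at 36.5, 53.9 and 96.9 CPM in HFD libraries and 17.4, 26.9 and 35.6 CPM in ND libraries (1.07 ± 0.24, adjusted p = 0.00343). Of 22 antioxidant genes 1 rose, 1 fell (9.09% called) and 20 did not pass, with a median of 0.05. The fall was in Gpx3, the secreted glutathione peroxidase, with 68.9, 136 and 190 CPM in HFD libraries and 256, 370 and 515 CPM in ND libraries (-1.64 ± 0.24, adjusted p = 1.15e-05). The rise was in Sod3, the extracellular superoxide dismutase (0.71 ± 0.22, adjusted p = 0.0485), and among fits with 1 library left out it was called only without HFD 3, ND 1, ND 2 or ND 4 (adjusted p up to 0.0995 in the others). The 17 tested Mup genes and pseudogenes, carriers of pheromones that liver is known to secrete, fell by 2.94 to 3.27 on the log2 scale, and 17 of 17 were called without ND 5 too. The family is made of nearly identical paralogs among which counting can divide reads, and single members are uncertain. Mup1 was listed at 3.67, 7.78 and 17.3 CPM in HFD libraries and 32.5, 54.5 and 193 CPM in ND libraries, with no overlap. Alb, the serum albumin of liver, fell beside them, with 2.64, 10.5 and 14.1 CPM in HFD libraries and 16.3, 35.8 and 60.6 CPM in ND libraries (-2.05 ± 0.38, adjusted p = 0.000466). The 8 liver genes, Alb included, summed to 5.50 to 24.6 CPM in HFD libraries and 25.7 to 72.8 CPM in ND libraries. Fgb was at 0 in both groups. Of the 3 liver genes that could be tested only Alb passed, and the others stood at -0.31 and -0.09. The part of liver genes in these results was not tested.

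Of 23 genes of branched-chain amino acid breakdown 1 rose and 1 fell (8.70%). Bcat1, the cytosolic transaminase of branched-chain amino acids, had 5.65, 10 and 19.7 CPM in HFD libraries and 0.286, 1.92 and 4.71 CPM in ND libraries, without overlap (2.25 ± 0.38, adjusted p = 8.44e-05). Ivd, a dehydrogenase of leucine breakdown, fell by 0.62 ± 0.16, and the mitochondrial transaminase Bcat2 stood at -0.57 ± 0.20. Of 15 genes of one-carbon metabolism and amino acid transport 1 rose, Slc7a10 as above, 3 fell and 11 did not pass, with a median of -0.01. The falls were in Slc1a3, a glutamate transporter (-1.21 ± 0.24), Slc43a1, a transporter of large neutral amino acids (-1.67 ± 0.30), and Gpt2, a mitochondrial alanine transaminase (-0.60 ± 0.18). The Gpt2 call ended without HFD 1, 2, 3 or 7 or ND 1, 3, 4, 6 or 7 (adjusted p 0.0512 to 0.0962). Outside that list Cdo1, which oxidises cysteine on the way to taurine, fell by 0.63 ± 0.16. S100a1, a calcium-binding protein, fell by 1.29 ± 0.21. In sphingolipid metabolism 4 of 16 genes rose and 0 fell. Cers4, a ceramide synthase, had 48.5, 51.6 and 76.7 CPM in HFD libraries and 21.4, 28.9 and 45.1 CPM in ND libraries (0.89 ± 0.18, adjusted p = 0.000904), and Degs1, the desaturase that makes ceramide, had 127, 137 and 165 CPM in HFD libraries and 64.6, 97.6 and 102 CPM in ND libraries (0.59 ± 0.14, adjusted p = 0.00546). Neither gene overlapped between the groups. Sphk1, which makes sphingosine 1-phosphate, rose by 2.04 ± 0.50, a call lost without ND 6, ND 8 and HFD 4 at 1.72 (adjusted p = 0.0681).

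In the core clock, 1 of 18 genes rose and 1 fell (11.1%). Per2, a repressor of the clock, had 12.5, 15.4 and 19.3 CPM in HFD libraries and 2.86, 7.46 and 9.82 CPM in ND libraries, without overlap (1.08 ± 0.26, adjusted p = 0.00734). Arntl, the activator BMAL1, had 5.92, 8.95 and 14.4 CPM in HFD libraries and 12, 21.1 and 41.2 CPM in ND libraries (-1.30 ± 0.35, adjusted p = 0.0183), and its call ended without ND 5 (adjusted p = 0.0536) and with muscle level as a covariate (adjusted p = 0.0545). Dbp, an output of the clock, stood at 0.73 ± 0.53. The labels give no hour of collection, so diet and hour cannot be told apart. Of 22 cell cycle genes only Cdk1 passed (4.55% called, against 4.50% of all tested genes). It had 6.00, 13 and 18.5 CPM in HFD libraries and 1.01, 2.57 and 4.86 CPM in ND libraries, without overlap (2.38 ± 0.41, adjusted p = 9.06e-05). Mki67 (1.19 ± 0.42) and Top2a (0.78 ± 0.31), which mark dividing cells, did not pass.

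By CPM, the largest rise was in Bc1, a short noncoding RNA known from neurons, with 14016, 20252 and 28733 CPM in HFD libraries and 2839, 9361 and 14913 CPM in ND libraries (1.03 ± 0.29, adjusted p = 0.0249). The groups overlapped at their ends. Its call ended without HFD 2 (adjusted p = 0.0677), ND 5 (0.0519), ND 6 (0.0544) or ND 8 (0.0550), without ND 6, ND 8 and HFD 4 (0.103), with muscle level as a covariate (0.0613) and without the filter on low counts (0.0756). The next largest rises by CPM were in Akap5, Tatdn1 and Lrrc17, and after Fabp4 in Elp6, genes of unrelated roles that ran with Bc1. The ratio of their CPM to that of Bc1 stayed between 0.528 and 0.559 for Akap5, 0.461 and 0.493 for Tatdn1, 0.412 and 0.468 for Lrrc17 and 0.275 and 0.299 for Elp6 over all 16 libraries. In the GENCODE M21 transcripts each of the 4 holds a stretch that aligns to the start of Bc1. The identity was 98.6% over 74 bases in Tatdn1, 97.8% over 91 bases in Lrrc17, 96.8% over 95 bases in Elp6 and 93.4% over 106 bases in Akap5, on the opposite strand in the last 2. The Bc1 gene (chr7:144914470-144914637, GRCm38, plus strand) is shown 5′ to 3′ because its start is the shared sequence, with bases 3 to 74, which align in all 4 genes, in capitals.
Bc1: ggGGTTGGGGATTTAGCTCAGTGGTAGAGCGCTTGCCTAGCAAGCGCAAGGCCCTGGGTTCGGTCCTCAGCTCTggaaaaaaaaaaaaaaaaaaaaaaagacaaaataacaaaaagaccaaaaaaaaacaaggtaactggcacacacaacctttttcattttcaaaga
Whether reads of 1 gene were counted in another cannot be told from the count table, so the values of these 5 genes are uncertain. The calls of the 4 ended in the same way as that of Bc1, among others without HFD 2, ND 5, ND 6 or ND 8 (adjusted p 0.0557 to 0.0915).

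**Figure D5:**
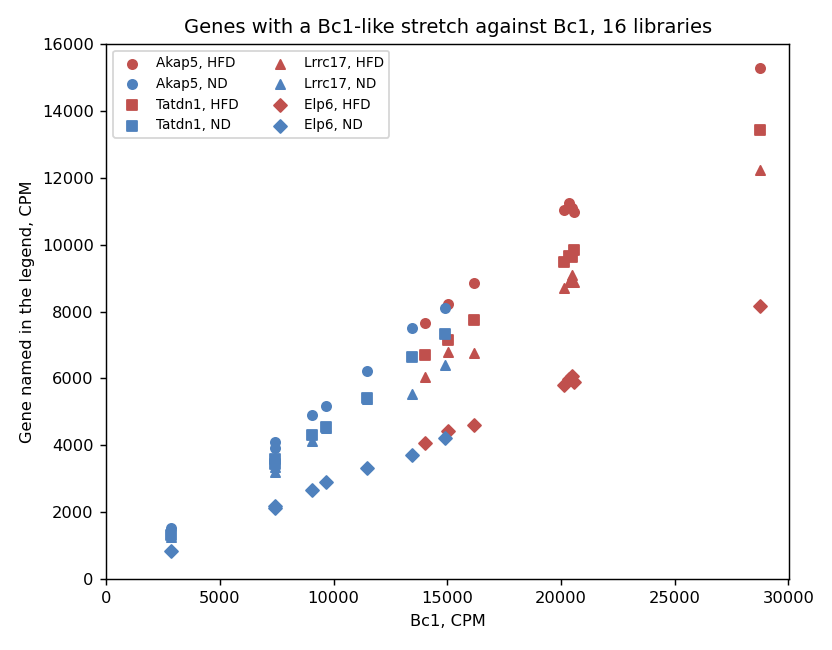
CPM of Akap5, Tatdn1, Lrrc17 and Elp6 (vertical axis) against CPM of Bc1 (horizontal axis) in the 8 HFD (red) and 8 ND (blue) libraries. The points of each gene lie near a line through 0, with ratios of 0.528 to 0.559 for Akap5 and 0.275 to 0.299 for Elp6, and the lowest point is ND 5 at 2839 CPM of Bc1.

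The steep fall of Cfd had a neighbour. Prtn3, a neutrophil protease, fell by 2.65 ± 0.41 (adjusted p = 3.02e-05), with 0.565, 2.35 and 5.20 CPM in HFD libraries and 4.10, 11.9 and 34.8 CPM in ND libraries. It ends 7678 bases before the start of Cfd on chromosome 10, on the same strand. Elane, the neutrophil protease gene between them, was too low to be tested. Of 12 listed monocyte and neutrophil genes 7 could be tested. Of these 2 had a positive and 5 a negative log2 fold change, from -1.78 to 1.16 with a median of -0.18. None was called lower, and the 1 that rose, S100a8 (1.16 ± 0.34), lost its call without several single libraries. These were HFD 2, 3, 5 or 6 or ND 3, 5, 6, 7 or 8 (adjusted p 0.0532 to 0.0937). Whether the falls of Prtn3 and Cfd are linked was not tested.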

How the data were processed

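RNA of sWAT was extracted with Nucleozol and made into LexoGen QuantSeq libraries for Illumina sequencing, per the labels' protocols. The genome build was mm10, per the submitters' processing notes; the aligner, the read counter and the gene models were not stated in any label or header read here. As raw data the authors deposited counts per gene symbol, and a normalized signal table that equals the deposited counts divided by 1 factor per library (relative spread 1.2e-09). The signal table was used for that check alone; 16 of its columns match no sample and were used in nothing.

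Counts (34843 symbols) were filtered with filterByExpr (15807 genes, 99.39% of counts), scaled by TMM and fitted with edgeR 4.0.16 (quasi-likelihood, robust) in R 4.3.3, over the 40 libraries with 1 mean per group. The SE is the log2 fold change over the root of F. Calls are Benjamini-Hochberg adjusted p under 0.05. No 2 libraries of a group were copies (smallest chi-square per degree of freedom 4.91). The procedure was tested on simulated data. Log2 CPM used a prior count of 2. Coordinates come from GENCODE M21 (15101 tested genes matched), Bc1 alignments from BLAST 2.17.0. The muscle covariate was the mean log2 CPM of the tested muscle genes. Alternatives used DESeq2 1.42.0, limma 3.58.1 and filters of 10 counts in 8 libraries.

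The comparison, gene lists and rules were chosen with earlier results of these data known. Named genes are the 20 largest changes each way at 2 log2 CPM or more, the 10 largest by CPM, up to 5 members per list by adjusted p, and a preset set of well-known genes; not every gene the rule allows is printed, and some were added after their values were seen. Intervals on counts are not given, since the spread between libraries exceeds counting error. A few genes that the rule names are not reported here.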

Additional observations from a re-analysis of the deposited data

Results flagged for a closer look

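For each of the 188 genes named here, the highest and lowest library of each group was compared with the other 7, by its gap to the nearest library over the group's range, against Dixon's 95% critical value for 8 samples. Chance gives such a gap in about 1 in 20 groups, and it was found in 42 of 376 (11.2%). In 33 of them the library was ND 5, the one with lymph node genes and less adipocyte RNA, as the lowest of ND. The log2 CPM of ND 5 was 4.28 for Adora1, 10.58 for Akap5, 11.47 for Bc1, 9.07 for Cavin1, 8.45 for Cebpa, 8.48 for Col4a1, 7.4 for Col6a3, 8.44 for Ctsd, 6.03 for Degs1, 6.63 for Dgat1 and 9.69 for Elp6. It was 5.17 for Fads3, 1.87 for Fgf1, 4.82 for G6pdx, 5.4 for Gpt2, 4.62 for Lbp, 7.2 for Lep, 10.31 for Lrrc17, 9.51 for Mgll, 5.55 for Npr3, 1.76 for Per2, 6.53 for Pfkfb3 and 10.08 for Plin1. The remaining values of ND 5 were 7.82 for Pmepa1, 10.42 for Pnpla2, 6.17 for Pparg, 7.69 for Rbp4, 9.74 for S100a11, 4.55 for Sfrp5, 3.47 for Slc7a10, 7.72 for Sod3, 10.66 for Sparc and 10.36 for Tatdn1. In HFD libraries, HFD 2 was lowest for Fads2 (2.78), Mrc1 (6.76) and Nr3c1 (5.93), HFD 3 was lowest for Dgat2 (10.31) and highest for Mgll (11.81), and HFD 8 was lowest for Col4a1 (9.63). In ND libraries, ND 2 was lowest for Adrb3 (6.10), ND 6 was highest for Ucp1 (5.44) and ND 7 was highest for Atp6v0d2 (3.57). Values without single libraries stand beside the results above where a call ended.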

How the results depend on the processing

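The count of called genes (712, with 447 up and 265 down) stayed within 1.5 times under DESeq2 (927), DESeq2 size factors (714), no filter (606), a stricter filter (711), only the 16 libraries (900), muscle level as a covariate (578), removal of abundant RNAs (676) and removal of ND 6, ND 8 and HFD 4 (534). It was 1289 with limma-voom quality weights, 772 up and 517 down, and 138 against a threshold of 1.5-fold, 72 up and 66 down, which asks for larger changes. Leaving out each library in turn gave 541 to 765 calls, 343 to 488 up and 198 to 279 down. Replicate numbers did not pair the libraries: correlations of same-numbered libraries ran from -0.145 to 0.113, and 2 of 8 matched best with their own number. With the replicate block 761 genes were called, 473 up and 288 down. No named gene called in any fit reversed. Without ND 6, ND 8 and HFD 4 the edgeR calls of 25 of the 188 named genes ended. Those not marked above include Pdha1 (-0.40, adjusted p = 0.279), Sod3 (0.63, 0.19), S100a8 (1.03, 0.127) and Ucp2 (0.80, 0.114). Others were Arntl (-1.18, 0.0964), Gpt2 (-0.59, 0.0955), Ctsd (0.55, 0.0806), Ccl7 (1.31, 0.0696) and Gipr (1.84, 0.0667). Akap5, Tatdn1, Lrrc17 and Elp6 lost their calls too (0.111 to 0.128). The scaling alternatives moved the median log2 fold change by 0.01 or less. Depth limits genes of a few CPM, where 1 library can decide a call; with 8 libraries a group the median SE was 0.24, so small changes can be missed. Diet and the order of library numbers cannot be told apart.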

Other observations

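Further changes lay outside the lists described above. Vmn2r63, a gene of the vomeronasal receptor family, had 6.54, 10.1 and 30.0 CPM in HFD libraries (lowest, median and highest) and 1.26, 2.41 and 5.64 CPM in ND libraries, without overlap, at a log2 fold change of 2.19 ± 0.37 (edgeR adjusted p = 8.6e-05). Among noncoding RNAs, Neat1, the scaffold of paraspeckles, fell by 0.70 ± 0.14, with 350, 430 and 498 CPM in HFD libraries and 451, 723 and 807 CPM in ND libraries. Snord89, a small nucleolar RNA, had 107, 137 and 199 CPM in HFD libraries and 232, 303 and 683 CPM in ND libraries, again without overlap (-1.27 ± 0.27, adjusted p = 0.00221). S100a11, a calcium-binding protein, rose by 0.73 ± 0.18, with its lowest ND value in ND 5, and by 0.63 without that library (adjusted p = 0.0230).

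Of 13 hypoxia genes 1 rose (7.69%, against 4.50% of all tested genes called), which was Hilpda. The 8 skin genes summed to 24.3 to 66.4 CPM in HFD libraries and 14.4 to 36.9 CPM in ND libraries. Krt79, a keratin of skin, rose by 1.94 ± 0.34 (edgeR adjusted p = 0.000142). It was the only call among the 4 skin genes tested, and the other 3 stood between -0.05 and 0.06. The 7 nerve genes summed to 108 to 572 CPM in HFD libraries and 184 to 464 CPM in ND libraries. The highest HFD sum was in HFD 4, and the next was 343 CPM. All 7 had a negative log2 fold change (median -0.71), and 2 were called, Scn7a and Sox10. Only 1 of these calls held in each fit with 1 library left out. Scn7a, a sodium channel of glia, fell by 0.71 ± 0.18 (adjusted p = 0.00999). The 6 mast cell genes summed to 84.0 to 238 CPM in HFD libraries and 140 to 230 CPM in ND libraries.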
